A study of Mus musculus with 14 samples.

Results

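The cytosolic ribosomal protein genes encode the proteins that join ribosomal RNA to form the large and small subunits of the ribosome outside mitochondria. They were taken as every listed gene whose symbol is Rpl, Rps or Rplp followed by a number, with an optional final a or x, or is Rpsa. The rule gave 77 of 20207 listed genes, 46 of the large subunit (Rpl and Rplp symbols) and 31 of the small subunit (Rps symbols and Rpsa). Fau and Gnb2l1, which encode ribosomal proteins under other symbols, lie outside the rule and are described separately.

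RNA came from primary embryo fibroblasts of 129/Sv mice, and the 3′ ends of polyadenylated RNA were sequenced. The groups were p53-/- cells given doxorubicin (2 libraries), untreated p53-/- cells (2), wild-type cells given doxorubicin (3) and untreated wild-type cells (3). Doxorubicin, a topoisomerase II poison that breaks DNA, was given at 0.2 µg/ml for 6 h. All 10 libraries came from embryo fibroblasts in the same medium. The labels number the replicates without saying whether they were separate embryos, lines or cultures, and do not say how the p53 allele was inactivated or at what passage cells were used. The p-values therefore measure the spread between these libraries, which may be technical. The stated aims were to find genes that respond to DNA damage with and without p53, and genes that differ between the untreated genotypes.

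Ribosomal protein mRNAs are among the most abundant in a growing cell and are usually made and translated together. Most start with a run of pyrimidines, the terminal oligopyrimidine (TOP) tract, through which mTOR signalling controls their translation. When ribosome assembly is disturbed, free Rpl5 and Rpl11 bind Mdm2, the ubiquitin ligase of p53, so that p53 accumulates. Several other ribosomal proteins have also been reported to bind Mdm2.

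Promoter sequences are shown first, because the TOP tract begins at the start site and members moved together. RefSeq promoter windows (assembly GRCm38.p6, 250 bases before to 50 after each start) were at hand for 56 of the 77 genes, in 66 windows. The letters CTTTC, read on the sense strand within 20 bases either side of the start, stood in 27.3% of the member windows. They stood in 5.49% of all 32851 windows and in 4.17% of the 72 windows of mitochondrial ribosomal protein genes. The letters CCGGAAG, an ETS-type motif, stood on either strand of the whole window in 36.4% of member windows, 8.86% of all windows and 31.9% of mitochondrial ribosomal protein windows. The end of CTTTC and the start of CCGGAAG can share 1 base. Below are 40 bases before and 20 after the start, 5′ to 3′ on the gene's strand, for 4 genes with CTTTC in capitals and for Rps4x, the member with the lowest fold between untreated genotypes, whose window held none. A match describes the letters only.
Rpl35a, chr16:33056442-33056501, plus strand: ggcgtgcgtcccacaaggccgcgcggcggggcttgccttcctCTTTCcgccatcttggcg
Rpl27a, chr7:109519155-109519214, plus strand: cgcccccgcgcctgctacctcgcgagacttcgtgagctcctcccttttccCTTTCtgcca
Rpl38, chr11:114668540-114668599, plus strand: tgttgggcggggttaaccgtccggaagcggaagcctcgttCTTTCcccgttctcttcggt
Rpl15, chr14:18270967-18271026, minus strand: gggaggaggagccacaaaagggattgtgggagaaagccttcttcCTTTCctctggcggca
Rps4x, chrX:102189372-102189431, minus strand: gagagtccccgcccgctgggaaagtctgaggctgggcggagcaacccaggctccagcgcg

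Levels are given in CPM, read counts put on a common library size and corrected for composition. Because reads come from 3′ ends, levels were compared between libraries and not between genes. Reads on listed genes numbered 18099506 to 25970157 in p53-/- libraries and 9768162 to 11770448 in wild-type libraries, so depth and genotype moved together. A gene was tested when it reached 1 CPM in at least 2 libraries, which 11177 genes and 72 members did (43 of the large and 29 of the small subunit). A gene is called when limma's test, adjusted over all 11177 genes by the Benjamini-Hochberg method, gave p under 0.05. Folds are log2 folds with their standard error (SE), with 0.5 CPM added, which understates the change of genes near that level. All 11 fibroblast markers were detected, summing to 4737 to 6056 CPM in p53-/- and 6616 to 9949 CPM in wild-type libraries. Macrophage and blood markers summed to 41.6 to 55.4 CPM in p53-/- and 29.7 to 295.7 CPM in wild-type libraries, and 1 of 13 was at 0 throughout. Epithelial markers summed to 99.5 to 136.7 CPM in p53-/- and 55.3 to 221.9 CPM in wild-type libraries, and endothelial markers to at most 4.28 CPM. The part of these markers in the results below was not tested. Cdkn1a, the p53 target that encodes the cell cycle inhibitor p21, stood at 29.3 to 53.9 CPM in p53-/- libraries, at 4071 to 5096 CPM in treated and 558.9 to 754.3 CPM in untreated wild-type libraries. Reads on Trp53 itself were present in p53-/- libraries (29.5 to 74.2 CPM, against 20.1 to 43.4 CPM in wild type), and 3′ reads outside a deleted part check nothing about the deletion.

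The count of ribosomal protein reads is open to error from gene copies. Of the 77 members, 62 have at least 1 named pseudogene in RefSeq, up to 23 for Rps12 and for Rpl31, and the way reads that match several places were handled is not given in the sources used here. In bulk RNA, fewer cells of a type and less RNA per cell cannot be told apart. Of the 77, 5 were not tested, among them Rpl26, Rpl27, Rps16 and Rps23. Rpl27 had 24 and 18 reads in treated p53-/- libraries, 25 and 17 in untreated p53-/- libraries, 0 to 3 in treated and 0 to 2 in untreated wild-type libraries. Over all libraries of a genotype, Rpl26 had 6 in p53-/- and 3 in wild type. Rps16 had 33 in p53-/- and 13 in wild type, and Rps23 had 64 in p53-/- and 19 in wild type. These are raw reads, not corrected for depth, and the p53-/- libraries were deeper. Rps16 averaged 0.25 CPM in treated and 0.41 CPM in untreated p53-/- cells, against 0.19 and 0.26 CPM in wild type. Rps23 averaged 0.55 CPM in treated and 0.72 CPM in untreated p53-/- cells, against 0.19 and 0.47 CPM in wild type. Rpl30 passed the filter with only 2 to 30 reads per library. Every other tested member averaged 96.6 CPM or more, up to 14240 CPM for Rpl41, the gene of the shortest ribosomal protein.

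Both treated wild-type libraries 2 and 3 stood apart in members. In treated wild-type library 2, 19 of 72 members (26.4%) lay over 2-fold below the median of the other 5 wild-type libraries, against 8.62% of 1415 other genes whose mean level was at least the 96.6 CPM above. Rpl35a lay lowest, at a log2 difference of -4.73, followed by Rps25 at -4.33, Rpl3 at -3.64 and Rpl17 at -3.14. Of the 19, 18 have a named pseudogene, as do 39 of the other 53. The 19 were also lower in untreated p53-/- than in untreated wild-type cells, with a median log2 fold of -1.59, against -0.73 for the other 53. Over the 72 members, the difference of library 2 from treated libraries 1 and 3 correlated with that fold (Pearson 0.59). What sets this library apart was not tested. In treated wild-type library 3, 16 members (22.2%) lay over 2-fold above that median, against 4.81% of the other genes. Rpl23 lay highest there at 4.06, followed by Rpl10a at 3.72 and Rps2 at 3.02. Of these 16, 15 have a named pseudogene, as do 42 of the other 56. Their median log2 fold between untreated genotypes was -1.23, against -0.84 for the other 56. Over the 72 members, the difference of library 3 from treated library 1 had a Pearson correlation of -0.15 with that fold. The other 4 wild-type libraries had 1 or 2 members so far below and 0 to 8 so far above, the 8 in untreated library 3. The median replicate standard deviation (SD) of the members' log2 levels was 0.17 in treated p53-/-, 0.15 in untreated p53-/-, 0.43 in treated and 0.31 in untreated wild-type cells. For the 1415 other genes it was 0.23 in treated p53-/-, 0.15 in untreated p53-/-, 0.30 in treated and 0.21 in untreated wild-type cells. Results that rest on the treated wild-type group are therefore given with and without libraries 2 and 3, a choice made after seeing the data.

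**Figure D1:**
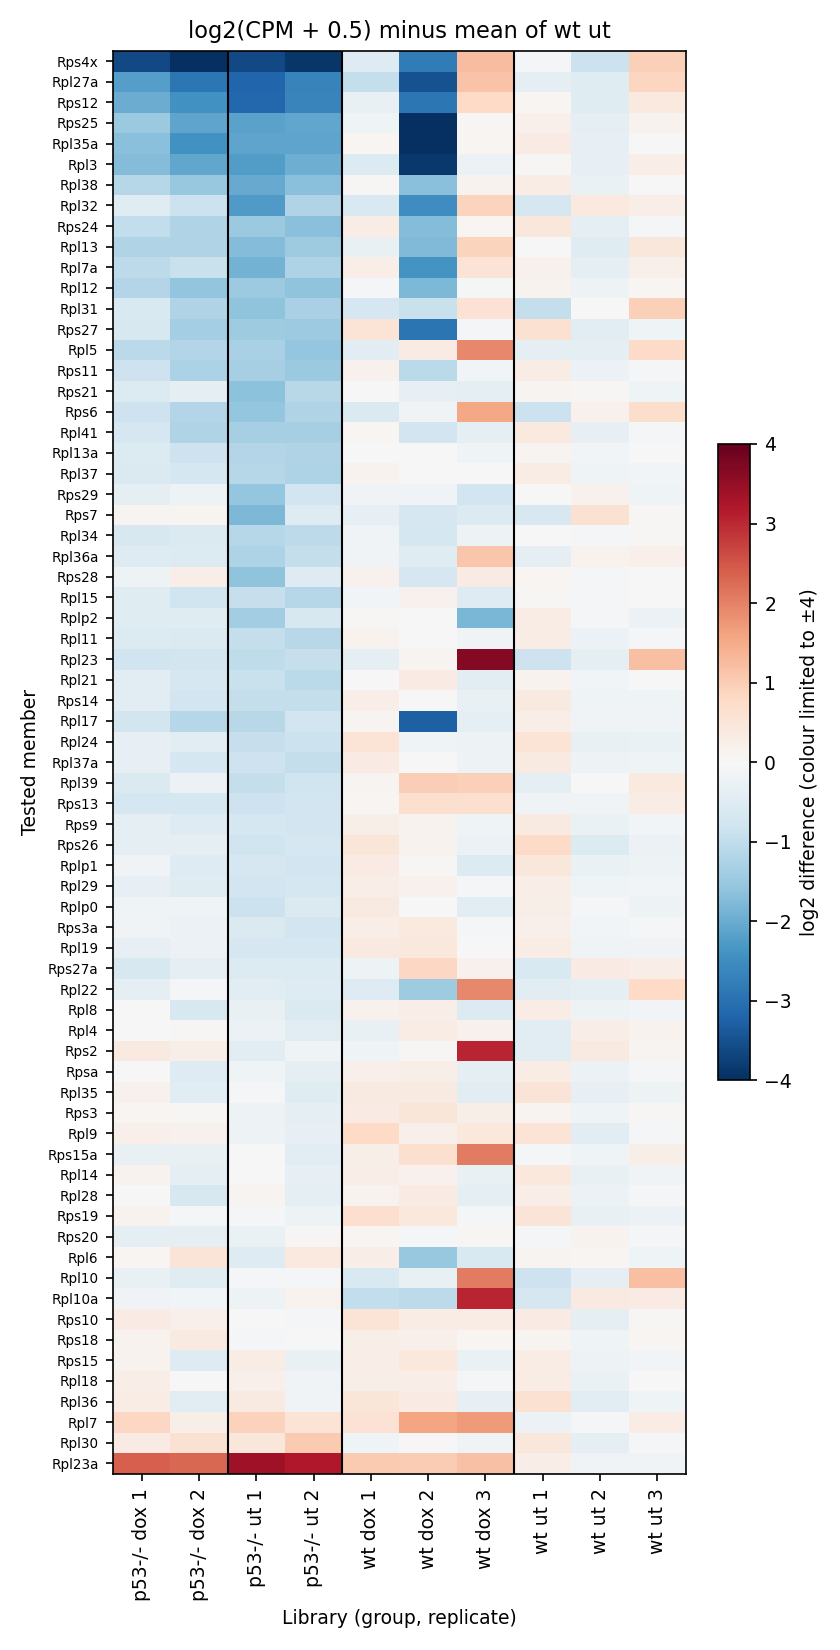
Level of 69 of the 72 tested members (down the page) in each of the 10 libraries (across), as log2 of CPM plus 0.5 minus the mean of the 3 untreated wild-type libraries; blue is lower, red is higher, and the colour stops at 4 either way. Members are ordered by the fold between untreated genotypes. Most members are lower in both untreated p53-/- libraries, Rpl23a at the bottom is higher in all 4 p53-/- libraries, and single members stand out in treated wild-type libraries 2 and 3.

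Ribosomal protein genes took 24.3% and 23.5% of reads in treated p53-/- libraries and 21.1% and 20.6% in untreated p53-/- libraries. They took 30.1%, 23.7% and 26.02% in treated wild-type libraries and 30.2%, 23.5% and 25.2% in untreated wild-type libraries. Both untreated p53-/- libraries lay below all other 8 libraries. In wild type the share differed more between replicate numbers than between treated and untreated libraries of the same number. A lower share can come from fewer reads on members or more on other genes.

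**Figure D2:**
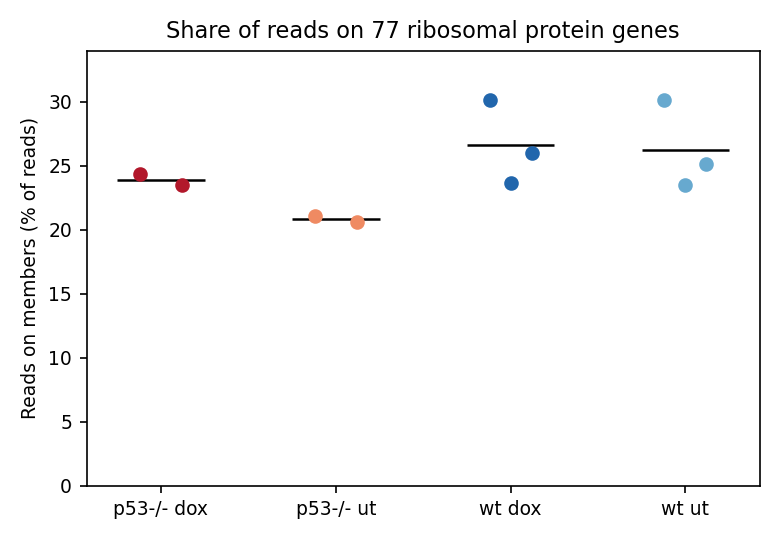
Reads on the 77 members as a percent of reads on listed genes (y axis) for each group (x axis); each point is 1 library and each bar the group mean. The untreated p53-/- libraries are the lowest, at 21.1% and 20.6%, and wild-type libraries spread from 23.5% to 30.2%.

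Between the untreated genotypes, most ribosomal protein mRNAs were lower in p53-/- cells. Of 72 tested members, 27 were lower and 1 was higher by the test, 37.5% and 1.39% of them. Of all 11177 tested genes, 12.8% were called lower, 20.4% higher and 33.1% in either direction. The median log2 fold of the tested members was -0.89, against 0.09 over all tested genes, and 65 of 72 member folds were below 0, against 46.9% of all genes. Groups did not overlap for 47 members on the lower and 3 on the higher side, where all genes gave 28.8% and 36.1%. Both subunits took part: 14 of 43 large-subunit members were lower and 1 higher (median -0.89), and 13 of 29 small-subunit members were lower (median -0.80).

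The number of calls depends on which libraries set the spread and on the scaling. Other fits change the spread of every gene. The shares of all genes called in the fits below are not given here. A change in the number of called members is therefore not a result about the members. Fitted on the untreated groups alone, 44 members were called (42 lower and 2 higher), and without treated wild-type libraries 2 and 3 there were 46 (44 lower and 2 higher). Scaled to library size alone, 13 members were lower and 3 higher and the member median was -0.49, while the median of all genes moved to 0.43. The gap between the member median and the median of all genes was -0.98 as reported and lay between -1.09 and -0.76 in 23 settings on the CPM scale. Many of these settings could hardly move it. A change of scaling shifts both medians alike, and leaving out treated libraries does not touch this comparison's folds. The ends of the range came from leaving out untreated wild-type library 2 and from a filter at 5 CPM. Scaled to the members' own summed reads, which asks how members differ among themselves, 5 were lower (among them Rpl38, Rpl41, Rps12 and Rps4x) and 9 higher (among them Rpl7, Rpl18, Rpl23a, Rpl30, Rpl36, Rps10, Rps15 and Rps18). With 1 of the 2 untreated p53-/- libraries left out, 3 members remained called without library 1 and 5 of the 28 without library 2, where a further member was called.

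Rps4x, a small-subunit protein gene on the X chromosome, had the lowest fold. It stood at 121 and 68.0 CPM in treated and 120 and 99.4 CPM in untreated p53-/- libraries. In wild type it stood at 1039, 213.7 and 3500 CPM in treated and 1406, 811.9 and 2852 CPM in untreated libraries. Every p53-/- library lay below every wild-type library, and wild-type libraries differed widely among themselves, treated library 2 being lowest. The log2 fold between untreated genotypes was -3.76 (SE 0.93, adjusted p = 0.015).

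Rps12 and Rpl27a followed. Rps12 stood at 531.7 and 747.3 CPM in untreated p53-/- libraries, against 4940, 3329 and 6172 CPM in untreated wild-type libraries (log2 fold -2.89, SE 0.82, adjusted p = 0.0247). Rpl27a stood at 352.6 and 499.5 CPM in untreated p53-/- libraries, against 2413, 2286 and 5779 CPM in untreated wild-type libraries (log2 fold -2.92, SE 1.02, adjusted p = 0.0498). Neither pair of untreated groups overlapped, and Rpl27a lay just inside the threshold. In treated wild-type libraries 1, 2 and 3, Rps12 stood at 3796, 625.8 and 8048 CPM and Rpl27a at 1650, 281 and 6972 CPM. Treated wild-type library 2 thus lay between the untreated p53-/- libraries for Rps12 and below them for Rpl27a. Rps25 had a log2 fold of -2.11 (SE 1.02, adjusted p = 0.132) and did not pass. Treated wild-type library 2 enters this comparison only through the shared spread, and without it the same fold had an adjusted p of 0.000996.

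The lowest adjusted p among members that were lower went with smaller folds and close replicates. Rpl13a, whose protein is also known to leave the ribosome and silence translation of some inflammatory mRNAs, stood at 2414 and 2395 CPM in untreated p53-/- libraries, against 5961, 5040 and 5483 CPM in untreated wild-type libraries. Its log2 fold was -1.19 (SE 0.18, adjusted p = 0.00309). Rps21, a small-subunit protein gene, stood at 730.8 and 1056 CPM in untreated p53-/- libraries, against 2493, 2377 and 2043 CPM in untreated wild-type libraries (log2 fold -1.39, SE 0.22, adjusted p = 0.00334). In both genes the wild-type libraries lay well above the p53-/- libraries. Rpl37, Rpl34, Rpl15 and Rpl41 also fell, with log2 folds from -1.33 in Rpl41 to -1.03 in Rpl15 and adjusted p from 0.00405 to 0.0107.

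**Figure D3:**
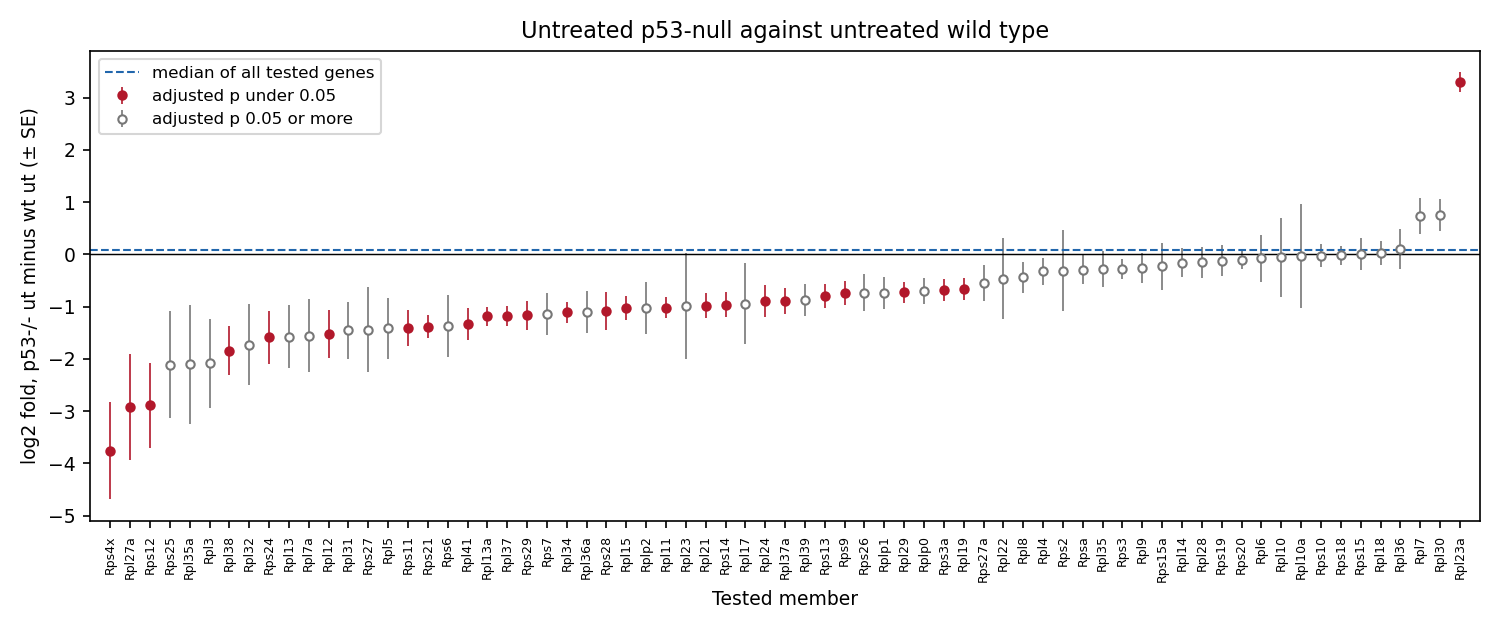
Log2 fold between untreated p53-/- and untreated wild-type cells (y axis, bars are SE) for 69 of the 72 tested members (x axis, ordered by fold); filled red points passed an adjusted p of 0.05 and the dashed line is the median of all tested genes, 0.09. Folds run from -3.76 in Rps4x to 3.30 in Rpl23a, 25 called members drawn lie below 0, and Rpl23a is the only called member above it.

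Rpl23a, a large-subunit protein gene near the exit of the peptide tunnel, went the other way. It stood at 889 and 828 CPM in treated and 1786 and 1554 CPM in untreated p53-/- libraries. In wild type it stood at 348.6, 343.1 and 385.6 CPM in treated and 204.5, 152.8 and 154.9 CPM in untreated libraries. None of the 4 groups overlapped: untreated p53-/- was highest, then treated p53-/-, treated wild type and untreated wild type. The log2 fold between untreated p53-/- and untreated wild type was 3.30 (SE 0.19, adjusted p = 6.37e-06), and the call held in all 23 alternatives. RefSeq names 13 pseudogenes of Rpl23a, and whether its reads came from the gene or from copies was not tested.

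**Figure D4:**
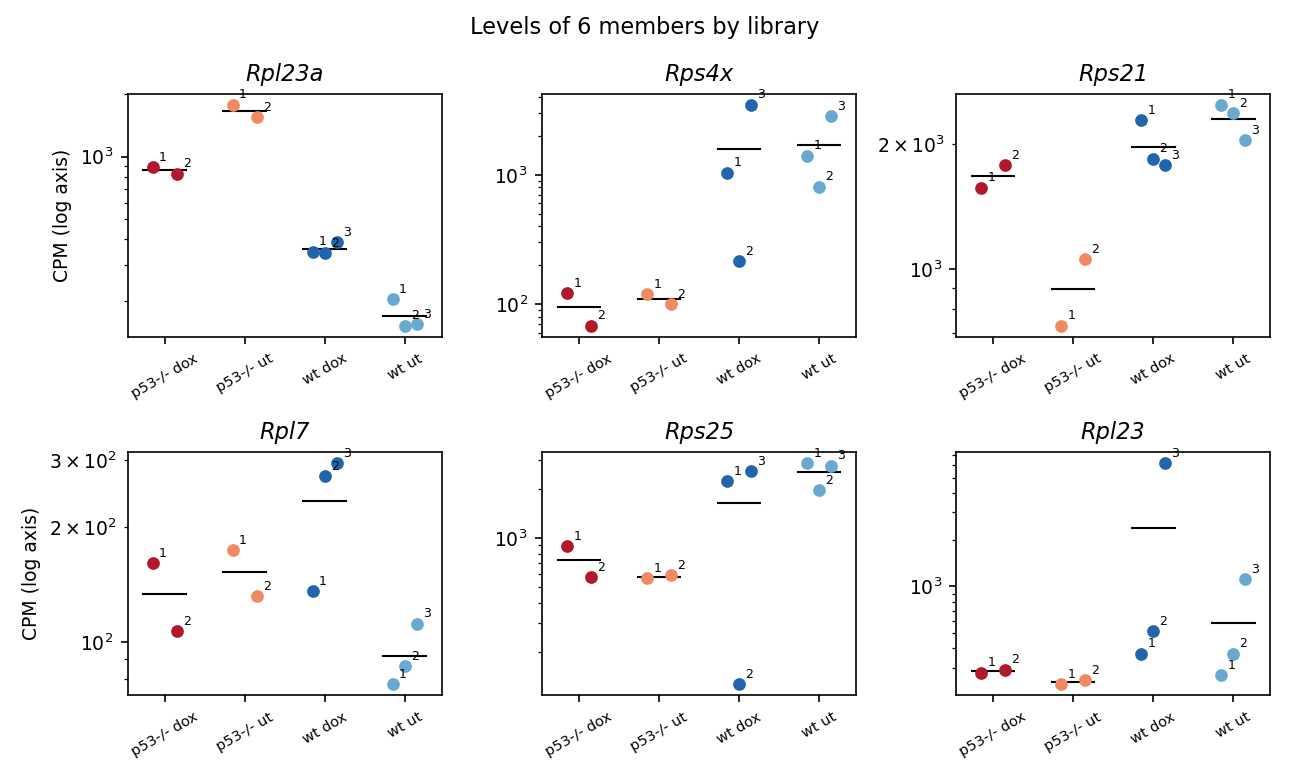
CPM on a log axis (y) of 6 members in each group (x); each point is 1 library with its replicate number and each bar a group mean. Rpl23a is highest in untreated p53-/- cells, Rps4x and Rps21 are low there, treated wild-type library 2 is far below the rest for Rps25, and treated wild-type library 3 is far above the rest for Rpl23.

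Among the 15 genes whose proteins have been reported to bind Mdm2, 14 were tested, all but Rpl26, and 3 were lower in untreated p53-/- cells, with a median log2 fold of -0.97, where 12.8% of all genes were called lower. Rpl11 stood at 3091 and 2782 CPM in untreated p53-/- libraries, against 7301, 5059 and 5692 CPM in untreated wild-type libraries (log2 fold -1.02, SE 0.21, adjusted p = 0.00777). Rpl37 and Rps14 were the other called members, at -1.18 (SE 0.20, adjusted p = 0.00405) and -0.96 (SE 0.25, adjusted p = 0.0167). Rpl5, the partner of Rpl11 and of the small ribosomal RNA they carry into the large subunit, stood at 255.0 and 215.7 CPM in untreated p53-/- libraries, against 487.6, 472.9 and 1065 CPM in untreated wild-type libraries, and did not pass (log2 fold -1.42, SE 0.58, adjusted p = 0.0839). Rps7 had -1.15 (adjusted p = 0.0514), Rpl23 -0.98, Rps25 -2.11 (given above), Rps27 -1.44, Rps27a -0.55, Rpl4 -0.33, Rps3 -0.28, Rps20 -0.10, Rpl6 -0.07 and Rps15 0.01, none of which passed. After doxorubicin, 0 of these 14 were called in either genotype by limma, where 12.6% of all genes were called in wild type and 0% in p53-/- cells. At an unadjusted p under 0.05 there were 2 of the 14 in p53-/- and 0 in wild-type cells. All 11177 genes gave 1255 in p53-/- and 3008 in wild-type cells.

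The stalk of the large subunit recruits elongation factors and is built from Rplp0, Rplp1 and Rplp2 on a base with Rpl12. Rpl12 was the only called gene of these 4 between untreated genotypes, at 2008 and 1797 CPM in untreated p53-/- libraries, against 6002, 4719 and 5791 CPM in untreated wild-type libraries (log2 fold -1.53, SE 0.46, adjusted p = 0.0298). Rplp0 had a log2 fold of -0.71 (adjusted p = 0.0507), Rplp1 -0.73 (0.0899) and Rplp2 -1.02 (0.134). Rpsa, whose protein also serves as a laminin receptor, stood at 12450 and 10730 CPM in untreated p53-/- libraries, against 17410, 11980 and 13570 CPM in untreated wild-type libraries, with a log2 fold of -0.29 (adjusted p = 0.432), and its groups overlapped.

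In doxorubicin-treated cells fewer members were called between the genotypes than in untreated cells, as were fewer of all genes. Over all genes, 12.1% were called in either direction, against 33.1% between untreated genotypes. Of 72 members, 5 were lower (6.94%) and 1 was higher (1.39%) in treated p53-/- than in treated wild-type cells. Of all genes, 6.83% were called lower and 5.24% higher, so the share of members called lower was near that of all genes. The member median was -0.44, against 0.03 over all genes, and groups did not overlap for 25 members on the lower and 3 on the higher side, where all genes gave 20% and 21.8%. Scaled to the members' own summed reads, the member median was 0.01, with 1 member lower and 2 higher. Rps13, a small-subunit protein gene, stood at 101.6 and 101.3 CPM in treated p53-/- libraries, against 176.1, 259.2 and 260.5 CPM in treated wild-type libraries (log2 fold -1.17, SE 0.21, adjusted p = 0.0103). Rps4x (-3.33), Rpl39 (-1.08), Rpl37 (-0.68) and Rpl13a (-0.65) were also called, with adjusted p from 0.0436 to 0.049. Rpl23a was higher, with a log2 fold of 1.26 (SE 0.19, adjusted p = 0.00213).

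These calls depended on the treated wild-type libraries that stood apart. The shares of all genes called without these libraries are not given here. Whether members changed more than other genes can therefore not be read from the counts. Without treated wild-type library 2, 15 members were lower and 1 higher, without library 3 there were 1 and 1, and without both there were 9 and 1. Rpl35a, with -0.54 (adjusted p = 0.796) in all libraries, had -2.12 (adjusted p = 0.00159) without library 2. Rpl3 and Rps25 likewise had -0.36 and -0.33 in all libraries and -1.52 (adjusted p = 0.00428) and -1.74 (adjusted p = 0.00291) without library 2. Rps13 had adjusted p of 0.0214 without library 2, 0.0285 without library 3 and 0.147 without both, while Rpl23a stayed called in each case.

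In wild-type cells doxorubicin left most ribosomal protein mRNAs within the spread of replicates. Rpl23a and Rpl7 were higher in treated cells and 0 members were lower, against 8.02% of all genes called higher and 4.56% lower, 12.6% in either direction. At an unadjusted p under 0.05 there were 4 of the 72 members, beside 3008 of all 11177 genes. The member median was 0.01, against 0.05 over all genes, and groups did not overlap for 3 members on the higher and 1 on the lower side, where all genes gave 17% and 12%. Rpl23a had a log2 fold of 1.08 (SE 0.17, adjusted p = 0.00327), and it had 1.04 (adjusted p = 0.0538) without treated libraries 2 and 3. Rpl7, a large-subunit protein gene, stood at 136.3, 272.0 and 295.0 CPM in treated libraries, against 77.5, 86.6 and 111.8 CPM in untreated libraries (log2 fold 1.28, SE 0.31, adjusted p = 0.024). All treated libraries lay above all untreated ones, but without treated libraries 2 and 3 the fold was 0.58 (adjusted p = 0.339).

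Apart from Rpl7 and Rpl23a, members at both ends of the wild-type response rested largely on 1 library. Rpl35a stood at 3935, 147.1 and 3907 CPM in treated libraries, against 4699, 2994 and 3689 CPM in untreated libraries, a log2 fold of -1.51 (adjusted p = 0.379) that became 0.07 without library 2. Rps25 stood at 2226, 127.4 and 2570 CPM in treated libraries, against 2873, 1967 and 2771 CPM in untreated libraries (log2 fold -1.47, and -0.07 without library 2). In both genes treated libraries 1 and 3 lay among the untreated ones. Rpl3 and Rpl17 had -1.55 and -1.17, and -0.39 and -0.12 without library 2. Rpl23 stood at 371.0, 518.5 and 6192 CPM in treated libraries, against 271.0, 371.0 and 1117 CPM in untreated libraries, a log2 fold of 1.14 (adjusted p = 0.46) that was -0.14 without library 3. Rps15a had 0.98 (adjusted p = 0.145), and 0.43 without library 3. With the replicate number as a block, 4 members were higher, Rpl7, Rpl23a, Rpl39 (0.68, adjusted p = 0.0197) and Rps15a (0.98, adjusted p = 0.0342), against 23.3% of all genes called.

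In p53-/- cells, 0 members were called after doxorubicin, as were 0 of all genes (0% of 11177), by limma. At an unadjusted p under 0.05 there were 9 members and 1255 genes, with 2 libraries a group. The member median was 0.36, against -0.08 over all genes, and 61 of 72 folds were above 0, against 44.7% of all genes. The member median was 0.23 without treated p53-/- library 1 and 0.091 scaled to the members' own summed reads, where the median of all genes was -0.05 without that library and -0.31 under that scaling. Groups did not overlap for 47 members on the higher and 3 on the lower side, where all genes gave 25.4% and 28.4%. The mitochondrial ribosomal protein genes, also 72, had a median of 0.37 in the same comparison. Rps7 stood at 365.3 and 362.2 CPM in treated p53-/- libraries, against 96.7 and 237.5 CPM in untreated p53-/- libraries (log2 fold 1.26, SE 0.44, adjusted p = 0.384). Rps28, Rpl32 and Rps21 had 1.10, 1.06 and 0.93. Rpl23a had the lowest fold, -0.96 (SE 0.21, adjusted p = 0.353), then Rpl10 at -0.34, Rpl30 at -0.29 and Rps20 at -0.27.

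The difference of the responses, the p53-/- response minus the wild-type response, was called for 1 of 72 members, against 2.34% of all genes (0.447% higher and 1.89% lower). That member was Rpl23a, with a difference of -2.04 (SE 0.27, adjusted p = 0.0051). Its level was lower in treated than in untreated p53-/- libraries and higher in treated than in untreated wild-type libraries. The median difference was 0.35, against -0.13 over all genes, and the member median was 0.195 without treated wild-type library 2, 0.37 without library 3 and 0.22 without both. Rpl23a remained the called member in each case, with adjusted p of 0.00875 without library 2, 0.00962 without library 3 and 0.0286 without both. The highest differences were 1.79 in Rpl32, 1.78 in Rps7, 1.78 in Rps25 and 1.73 in Rpl3, and Rpl7 (-1.49), Rps15a (-1.04) and Rpl23 (-0.90) followed Rpl23a at the low end, none of which passed. Without treated wild-type library 2, Rpl32 had 0.92, Rps25 0.37 and Rpl3 0.57, and Rps7 had 1.70. Without library 3, Rpl23 turned to 0.37 and Rps15a had -0.50, and without both libraries Rpl7 had -0.79. With the replicate number as a block 4 members were called, Rpl23a (-2.04), Rpl7 (-1.49, adjusted p = 0.0248), Rps21 (1.16, adjusted p = 0.0277) and Rps29 (1.22, adjusted p = 0.037), against 9.63% of all genes.

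Members with and without CTTTC near the start both had negative medians between untreated genotypes. The 18 tested members with it had a median log2 fold of -1.11 and 5 calls, the 34 without it -0.88 and 14 calls, and the 20 with no window at hand -0.73 and 8 calls. These are calls of lower members, beside 12.8% of all genes called lower. The promoters printed above were chosen after the values were seen. Of them, Rpl27a, Rpl38 and Rpl15 belong to called genes with CTTTC and Rps4x to a called gene without it. Rpl35a had -2.11 (adjusted p = 0.173, and 0.0014 without treated wild-type library 2).

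Ribosomal proteins under other symbols and paralogs of members were mixed. Gnb2l1, which encodes the small-subunit scaffold Rack1, stood at 444.7 and 725.6 CPM in untreated p53-/- libraries, against 3087, 2677 and 4571 CPM in untreated wild-type libraries (log2 fold -2.56, SE 0.54, adjusted p = 0.00914). Fau had -0.47 (adjusted p = 0.124). Rps27l, a paralog of Rps27 and a known p53 target, stood at 30.5 and 29.5 CPM in treated and 45.1 and 49.2 CPM in untreated p53-/- libraries. It stood at 41.7, 57.5 and 60.3 CPM in treated and 17.3, 22.5 and 29.0 CPM in untreated wild-type libraries. It rose with doxorubicin in wild type (log2 fold 1.21, SE 0.24, adjusted p = 0.0098), and the responses differed by -1.85 (SE 0.38, adjusted p = 0.0358). Between untreated genotypes Rps27l and Rpl22l1 were higher (1.06 and 1.40, adjusted p = 0.0161 and 0.0241) and Rpl36al was lower (-1.53, adjusted p = 0.0452). Rpl7l1 and Rpl39l had -0.26 and 0.03 there and did not pass, and Rpl3l and Rpl10l were not tested.

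Other genes of ribosome production were described by the same counts, beside 12.8% of all genes called lower and 20.4% higher between untreated genotypes. Of 90 tested nucleolar ribosome assembly genes, 22 were higher and 11 lower in untreated p53-/- than in untreated wild-type cells (median 0.14), among them Npm1, the abundant nucleolar chaperone nucleophosmin, at 1.81 (adjusted p = 0.0033). In treated cells 26 were higher and 0 lower in p53-/- (median 0.59), where 5.24% of all genes were called higher and 6.83% lower. After doxorubicin in wild type, 1 was higher and 18 were lower (median -0.46), where 8.02% of all genes were called higher and 4.56% lower, among them Nolc1 (-1.37, adjusted p = 0.00179), Nat10 (-1.21, adjusted p = 0.00356) and Dkc1 (-1.43, adjusted p = 0.00377), which act in the modification of ribosomal RNA. Of the 72 mitochondrial ribosomal protein genes, 2 were higher and 22 lower between untreated genotypes (median -0.64), with Mrpl46 at -1.44 (adjusted p = 0.00226). Of 21 tested translation factors and other TOP mRNAs, 4 were higher and 4 lower (median -0.01), Eef1d, a subunit of the exchange factor for elongation factor 1A, at -1.34 (adjusted p = 0.00179) and Eif3a at 2.08 (adjusted p = 0.00717). Of 16 genes of mTOR and Myc control, 4 were higher and 2 lower (median 0.12), with 10 folds above 0 and 6 below. Among them were Myc at 2.84 (adjusted p = 0.0018), Rheb, an activator of mTOR, at 2.06 (adjusted p = 0.00208) and Tsc2, an inhibitor of Rheb, at -1.39 (adjusted p = 0.00602). The translation inhibitors Eif4ebp1 and Eif4ebp2 had -1.03 (adjusted p = 0.00334) and 1.97 (adjusted p = 0.00724). Ddit4 and Sesn2, stress-induced inhibitors of mTOR, rose with doxorubicin in wild type by 2.39 (adjusted p = 0.000308) and 2.31 (adjusted p = 0.00297).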

How the data were processed

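RNA was measured in 10 libraries. Per the submitters' processing notes, DESeq and the mouse build mm9 were used, with no version. For the aligner, annotation, strand and handling of reads that match several places, the setting is not given in the sources used here, so overlapping genes cannot be told apart. The authors' deposited values lie on a variance-stabilised scale close to log2, with no header. Whole reads were recovered from the steps common to all libraries: 99.85% of 23362 distinct values past the first 250 reads came within 0.01 read of a whole number, and 1 was over 0.3 away. They are computed values, not a deposited count table. Scaling used trimmed means of M values (trims 30% and 5%), and log2 of CPM plus 0.5 was fitted by limma 3.58.1 in R 4.3.3 with its trend option and 1 mean per group, for genes at 1 CPM or more in at least 2 libraries. Tests are two-sided, with a Benjamini-Hochberg threshold of 0.05, and the method was tested on simulated data. A count model, planned where counts were deposited, was not used.

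The members, lists and tests were chosen with earlier results of these data known. Named members are those called in a comparison (at most 10, by p), the 4 highest and 4 lowest folds, the Mdm2-binding and stalk genes, Rpsa and the least detected. Rpl38, Rps24, Rps29, Rps2, Rpl10a and members named for another scaling, fit or promoter, and Eif4ebp2, were chosen after their values were seen. Of other lists, called genes were named, at most 4 by p, and the genes of the other-symbol and paralog lists. Some genes that this rule takes are not reported here. Replicate numbers were checked as pairs: in wild type, deviations from the group means correlated at 0.58, 0.34 and 0.61 between libraries of the same number over all tested genes, so the numbers pair the libraries. In p53-/- the correlation was 0.385 for the same number and -0.385 otherwise, values tied to each other because each group has 2 libraries, so pairing there is not settled. The main test did not use the pairing, and the fit with the replicate number as a block did. The block also joins wild-type and p53-/- libraries that share only a number. The peak list was not used here, because its build differs from that of the annotation at hand. Sequences are from RefSeq.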

Additional observations from a re-analysis of the deposited data

Results flagged for a closer look

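The responses to doxorubicin differed between the genotypes for Rpl23a. The p53-/- response minus the wild-type response was -2.04 on the log2 scale (SE 0.27, adjusted p = 0.0051, limma with Benjamini-Hochberg adjustment). The log2 fold with doxorubicin was -0.96 in p53-/- cells, where it did not pass, and 1.08 in wild-type cells, with no overlap between treated and untreated libraries in either genotype. Without untreated p53-/- library 1 the difference was -1.94 (adjusted p = 0.0533), and over its 22 alternatives the adjusted p ran from 0.00246 to 0.0533. The part of the 13 named pseudogenes in it was not tested.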

How the results depend on the processing

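Members called between untreated genotypes were 28, and 16 by library size alone (median -0.49), 14 scaled to the summed member reads (median -0.17), 44 fitted on these groups alone, 46 without treated wild-type libraries 2 and 3, and 3 to 40 leaving out 1 library (16 without untreated wild-type library 3, 3 and 6 without untreated p53-/- library 1 or 2). On the deposited scale, whose units are not log2 folds, the medians were -1.50 here and 0.62 for the p53-/- response. On that scale they were 0.61 for the difference of responses and -0.73 between treated genotypes. Scaled to member reads, Rpl19 (0.061) and Rps3a (0.045) reversed, and the medians were 0.091 for the p53-/- response, 0.08 for the difference of responses and 0.005 between treated genotypes. Between treated genotypes, 6 calls became 3 by library size (median -0.14), upper quartile scaling or member reads, 2 with no filter on low values, 1 fitted on these groups alone, 10 without treated wild-type libraries 2 and 3, and 1 to 16 leaving out 1 library: 16 without treated wild-type library 2, 2 without treated wild-type library 3, untreated wild-type library 2 or either untreated p53-/- library, and 1 without either treated p53-/- library (medians -0.59 to -0.34). In wild type, 2 calls became 1 by member reads or on these groups alone, 0 without treated libraries 2 and 3, and 1 to 3 leaving out 1 library. The difference of responses had 0 or 1 calls leaving out 1 library. With the replicate block there were 4 calls in wild type, 4 in the difference of responses, 34 between untreated and 7 between treated genotypes. Of all genes, that fit called 23.3%, 9.63%, 32.9% and 12.8% in the same order. Across genotypes the block joins libraries that share only a number. For the other settings the shares of all genes called are not given here. The cause of these changes was not tested, except that fewer libraries leave fewer degrees of freedom. Where 1 library remained in a group, it was assumed to vary like the others. Depth limits Rpl30 and the 5 untested members.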
